A study of Mus musculus with 23 samples.

Results

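The sarcomeric myosin heavy chains are the motor proteins of the thick filament in striated muscle. The 8 genes described here (Myh1, Myh2, Myh3, Myh4, Myh6, Myh7, Myh7b and Myh8) were chosen by symbol from the 32793 rows of the gene tables. The choice was made with earlier results of these data known. All 8 passed the filter on low counts, Myh6 only through the day 6 libraries labelled Runx1KO. The data were poly(A) RNA-seq of C2C12, a mouse myoblast line that divides in serum-rich medium and fuses into multinucleate myotubes when serum is withdrawn. Cells labelled control (called WT here) or Runx1KO (called KO) were sampled while growing in 20% FBS (fetal bovine serum; day 0) and again 1, 3 and 6 days after a change to differentiation medium, which holds 2% horse serum. Runx1 encodes a DNA-binding transcription factor, and the comparisons ask how the labelled genotypes differ on each day and how each genotype changes as it differentiates. The 8 groups held 3 libraries each, except WT on day 0, of which 2 libraries were analysed. The sources used here do not say how the KO cells were made, or whether they are 1 clone or a pool. The sample titles give the last time point as day 6 and the series text gives it as 5 days; the titles were followed.

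Each sarcomeric myosin heavy chain hydrolyses ATP to pull on actin, and which isoform a fibre makes sets how fast it contracts. Embryonic (Myh3) and perinatal (Myh8) isoforms are made first in developing and regenerating muscle. Adult fast fibres then make the IIa (Myh2), IIx (Myh1) or IIb (Myh4) isoform, and slow fibres make the slow isoform (Myh7), which is also the beta isoform of the heart. Myh6 encodes the alpha isoform of the heart, and Myh7b encodes a related slow-type chain.

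In the GRCm38 assembly (mm10), 5 of the members lie head to tail on the plus strand of chromosome 11, in the order Myh3 (chr11:67078273-67102291), Myh2 (chr11:67171027-67197517), Myh1 (chr11:67200102-67224577), Myh4 (chr11:67237812-67260447) and Myh8 (chr11:67277124-67308634). The gene for the cardiac alpha isoform, Myh6 (chr14:54941921-54968017), lies beside Myh7 (chr14:54970684-54994626) on the minus strand of chromosome 14. Myh7b stands alone on chromosome 2 (chr2:155611243-155634307, plus strand). The promoters of Myh2, Myh1, Myh4 and Myh8 are shown because these genes are neighbours in the cluster and share stretches of sequence there. Each line is 100 bases of RefSeq GRCm38.p6 sequence upstream of the transcript start, on the plus strand. Capitals mark a 9-base run shared by all 4 promoters and a 20-base run that is identical in the 3 adult fast genes.
Myh2 (chr11:67170849-67170948): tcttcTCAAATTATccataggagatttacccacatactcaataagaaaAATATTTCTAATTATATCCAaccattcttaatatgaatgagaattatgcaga
Myh1 (chr11:67199881-67199980): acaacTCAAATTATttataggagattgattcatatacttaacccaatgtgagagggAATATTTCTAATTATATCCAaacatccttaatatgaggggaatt
Myh4 (chr11:67237620-67237719): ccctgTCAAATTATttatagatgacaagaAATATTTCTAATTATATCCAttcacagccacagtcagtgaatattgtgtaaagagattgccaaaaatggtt
Myh8 (chr11:67277015-67277114): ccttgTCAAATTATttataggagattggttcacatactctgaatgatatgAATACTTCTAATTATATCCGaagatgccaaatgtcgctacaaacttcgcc

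The 20-base run begins at -165 in Myh1, -130 in Myh2 and -163 in Myh4, counted from the transcript start. It was found in 3 of 32851 RefSeq promoter windows of the same length (250 bases before to 50 after the start, both strands searched), which were those of these 3 genes. Myh8 carries the run with 2 substitutions, T5C and A20G, counted from 1 at its 5′ end with the base of the 3 fast genes first. The 9-base run, TCAAATTAT, was present in 59 windows (0.180%). The best match to the 20-base run in the other member promoters (Myh3, Myh6, Myh7 and Myh7b) had at least 7 mismatches. A MEF2 site, the consensus bound by the muscle regulators of the MEF2 family, overlaps the 9-base run in Myh1, Myh4 and Myh8, and 3.19% of all windows hold one.

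The Myh3 promoter is shown because Myh3 gave most of the myosin heavy chain signal and because the study concerns Runx1. Capitals mark, in order, the Runx core TGTGGT, the Ets core GGAAG and the TATA box TATAAA in the 150 bases before the transcript start of the RefSeq window (plus strand). That start lies downstream of the first base of the gene span given above, so the last bases printed fall within that span.
Myh3 (chr11:67078150-67078299): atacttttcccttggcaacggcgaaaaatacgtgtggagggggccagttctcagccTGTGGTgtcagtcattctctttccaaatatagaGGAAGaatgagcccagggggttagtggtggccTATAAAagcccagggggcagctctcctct
Of the 8 member windows, that of Myh3 alone held TGTGGT on either strand, at -94, while 16.8% of all windows hold it. GGAAG occurs in 71.4% of all windows and is common by its length. These matches describe letters in the sequence, and no binding was measured in these samples.

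The close relation of these genes also bears on the counts. In GENCODE transcripts, 32.1% of the 50-base words of the Myh1 transcript also occurred in another gene on either strand, most often in Myh2 (19.7%). The share was 28.9% for Myh2, 28.2% for Myh7, 22.6% for Myh6, 21.4% for Myh8, 18.9% for Myh4, 4.81% for Myh3 and 0% for Myh7b. The read length is not given in the sources used here, and longer words were shared less often: at 75 and 100 bases the share was 21.97% and 14.7% for Myh1, 9.68% and 3.85% for Myh4, and 1.86% and 1.15% for Myh3. Differences between Myh1, Myh2, Myh4 and Myh8, and between Myh6 and Myh7, are therefore uncertain where the authors' counting could split reads between paralogs. Use of strand is not given in the sources used here, so reads from antisense transcripts in these loci could not be told apart from those of the genes.

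Total estimated counts per library ran from 22197606 to 23684077. Runx1 mRNA was not lower in KO-labelled libraries on any day: on day 6 it stood at 297, 319.7 and 315 CPM (counts scaled to library size) in those libraries and at 146, 148 and 165 CPM in WT. This transcript level alone does not tell whether the knockout worked, since how the KO cells were made is not given here. Every direction below is for the libraries as labelled. Replicate 2 of the day 1 KO-labelled group stood apart from its replicates, and replicate 1 of the day 3 KO-labelled group was high for several members; calls that were lost without either are named beside the result. The myotube markers matched the cell type: their summed level (in TPM, the per-length unit, scaled to a fixed total in each library) was 71 to 115 in WT on day 1 and 2637 to 2862 on day 3. Nothing says that the libraries of a group came from separate cultures, so p-values measure the spread between these samples, which may be technical.

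Myh3, the embryonic isoform, was the most abundant member from day 1 onward in both genotypes. In growth medium its counts were 2 and 0 in WT and 0, 3 and 0 in KO-labelled libraries. On day 1 it reached 80, 46 and 81 counts in WT and 157, 221 and 208 in KO-labelled libraries, so the groups did not overlap. On day 3 the WT counts were 5515, 6145 and 6628, against 14625, 7470 and 7677 in KO-labelled libraries. By day 6 WT had fallen to 2984, 2734 and 4128, while KO-labelled libraries held 8548, 10445 and 9369. On days 3 and 6 the lowest KO-labelled library had more counts than any WT library of any day.

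By edgeR's quasi-likelihood test, with p-values adjusted by Benjamini-Hochberg over 14187 genes, Myh3 was higher in KO-labelled libraries by a log2 fold change (log2FC) of 1.54 on day 1 (SE 0.29, adjusted p = 0.000168), or 1.46 without replicate 2 of the KO-labelled group. The day 6 difference was 1.55 with an SE of 0.20 (adjusted p = 1.15e-06). That of day 3 was 0.76 with an SE of 0.20 (adjusted p = 0.00326), but it rested on replicate 1 of the KO-labelled group: without that library it was 0.36 with adjusted p = 0.0764, and limma on log2(TPM + 1) and log2(TPM + 0.1) gave adjusted p = 0.274 and 0.370. In TPM, the day 3 levels were 102, 121 and 112 in WT and 244, 111 and 112 in KO-labelled libraries, which overlap. The TPM given to 1000 counts of Myh3 varied between 12.1 and 21.8 across libraries, so counts and TPM of this gene can differ by up to 1.80-fold for the same reads.

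Myh1, the fast IIx isoform, was the next most abundant member from day 3 and was higher in KO-labelled libraries on each day of differentiation. On day 1 it had 3, 5 and 6 counts in WT and 20, 56 and 29 in KO-labelled libraries. On day 3 the counts were 253, 276 and 323 in WT and 1374, 1392 and 1590 in KO-labelled libraries. On day 6 they were 2337, 1491 and 2674 against 3325, 4624 and 4447. The groups did not overlap on any of these 3 days, and the ratio between them was smaller on day 6 than on day 3. Its log2FC against WT on day 1 came to 2.91 (SE 0.56, edgeR adjusted p = 0.000225). The day 3 value was 2.40 with an SE of 0.19 (adjusted p = 6.49e-10), and that of day 6 was 0.95 with an SE of 0.17 (adjusted p = 7.59e-05). Without replicate 2 of the day 1 KO-labelled group, the day 1 value was 2.42 (adjusted p = 0.00758).

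Myh2, the fast IIa isoform, stayed under 1 TPM in every library. Its day 3 counts were 6, 8 and 10 in WT and 49, 49 and 32 in KO-labelled libraries, a log2FC of 2.47 (SE 0.36, edgeR adjusted p = 8.91e-06). On day 6 the counts were 60, 30 and 48 in WT and 59, 78 and 79 in KO-labelled libraries; the log2FC of 0.66 (SE 0.29) had an adjusted p of 0.0667 and did not pass, although it did without WT replicate 1 (0.87, adjusted p = 0.0386). WT thus approached on day 6 the level that KO-labelled libraries already had on day 3.

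Myh4, the fast IIb isoform, was scarce. It had 27, 41 and 50 counts in WT on day 6 and 17, 23 and 36 in KO-labelled libraries, and these groups overlapped (log2FC -0.62, SE 0.76, edgeR adjusted p = 0.553). Limma on log2(TPM + 1) called it lower (-0.44, adjusted p = 0.0248). On day 3 no library exceeded 5 counts. The test on day 1 called Myh4 higher in KO-labelled libraries (edgeR adjusted p = 0.012), but the call came from replicate 2 alone, with 44 counts where the other libraries of both genotypes had 0. Without that library no difference remained.

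Myh8, the perinatal isoform, rose by day 6 in both genotypes but stayed under 1 TPM. Its counts on day 3 were 10, 13 and 6 in WT and 61, 36 and 27 in KO-labelled libraries, a log2FC of 2.13 (SE 0.48, edgeR adjusted p = 0.00096). On day 6 they were 20, 28 and 29 against 53, 73 and 76, a log2FC of 1.40 (SE 0.41, edgeR adjusted p = 0.0084); limma on log2(TPM + 0.1) did not call it (0.85, adjusted p = 0.0540). The groups did not overlap on either day. Without replicate 1 of the KO-labelled group, the day 3 value was 1.74 (adjusted p = 0.0108).

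Myh7, the slow and cardiac beta isoform, reached its highest level in KO-labelled libraries on day 6. It had 5, 4 and 11 counts in WT and 23, 13 and 32 in KO-labelled libraries on day 3 (log2FC 1.80, SE 0.48, edgeR adjusted p = 0.00462). On day 6 WT held 8, 19 and 21 counts and KO-labelled libraries held 112, 145 and 158 (log2FC 3.12, SE 0.38, edgeR adjusted p = 9.29e-07). From day 3 to day 6 it rose by 2.56 in KO-labelled libraries (SE 0.37, adjusted p = 8.82e-06), whereas the WT change of 1.24 did not pass (SE 0.50, adjusted p = 0.139). The test of whether these steps differ gave 1.32 (SE 0.65, adjusted p = 0.205) and no call. In TPM the day 6 level was still low, at 1.41, 1.65 and 1.80 in KO-labelled libraries.

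Myh6, the cardiac alpha isoform, was at 0 counts in every library of days 0 and 1. On day 6 it had 18, 16 and 19 counts in KO-labelled libraries and 2, 0 and 1 in WT, a ratio of depth-scaled counts of 17.9 (95% interval 5.79 to 89.4, counting error only). Since Myh6 passed the filter only through the group in which it was high, its edgeR call is a description and supports nothing further. All 3 KO-labelled libraries lay above all 3 WT libraries, at 0.19 to 0.23 TPM. Of 11 listed markers of heart muscle cells 5 were tested. On day 6, when 22% of all tested genes were higher in KO-labelled libraries, 4 of the 5 were. These were Tnnt2 and Myl4, which developing skeletal muscle also expresses, the cardiac troponin I gene Tnni3 (log2FC 1.73, SE 0.50, edgeR adjusted p = 0.0068; 15 to 17 counts against 1 to 9) and the transcription factor gene Gata4 (0.66, SE 0.11, adjusted p = 4.06e-05; 503 to 609 counts against 336 to 391). Nkx2-5, another cardiac transcription factor gene, did not pass, at 418 to 479 counts against 424 to 571 in WT. The summed TPM of the 11 listed markers was 3619 to 4649 there and 507 to 578 in WT, nearly all of it Tnnt2 (means of 1897 and 311 TPM) and Myl4 (2350 and 183 TPM). The 6 untested markers were scarce: Myl7 was at 0 in all 6 libraries, Nppa and Tbx5 did not exceed 2 counts, Nppb and Hcn4 3, and Ryr2 5. Their part in the Myh6 difference was not tested.

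Myh7b went the other way. Its day 6 counts were 58, 41 and 37 in WT and 18, 15 and 22 in KO-labelled libraries, so the groups did not overlap in counts, and it was lower in KO-labelled libraries by a log2FC of -1.28 (SE 0.44, edgeR adjusted p = 0.0215). The call was lost without KO replicate 2 (-1.15, adjusted p = 0.082) or without WT replicate 1 (-1.10, adjusted p = 0.0854). In TPM the day 6 groups overlapped (0.71, 0.49 and 0.50 in WT, 0.22, 0.17 and 0.58 in KO-labelled libraries), and limma on log2(TPM + 0.1) did not call it (adjusted p = 0.121). On day 3 the groups overlapped (11, 13 and 22 counts in WT, 19, 9 and 4 in KO-labelled libraries).

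**Figure D1:**
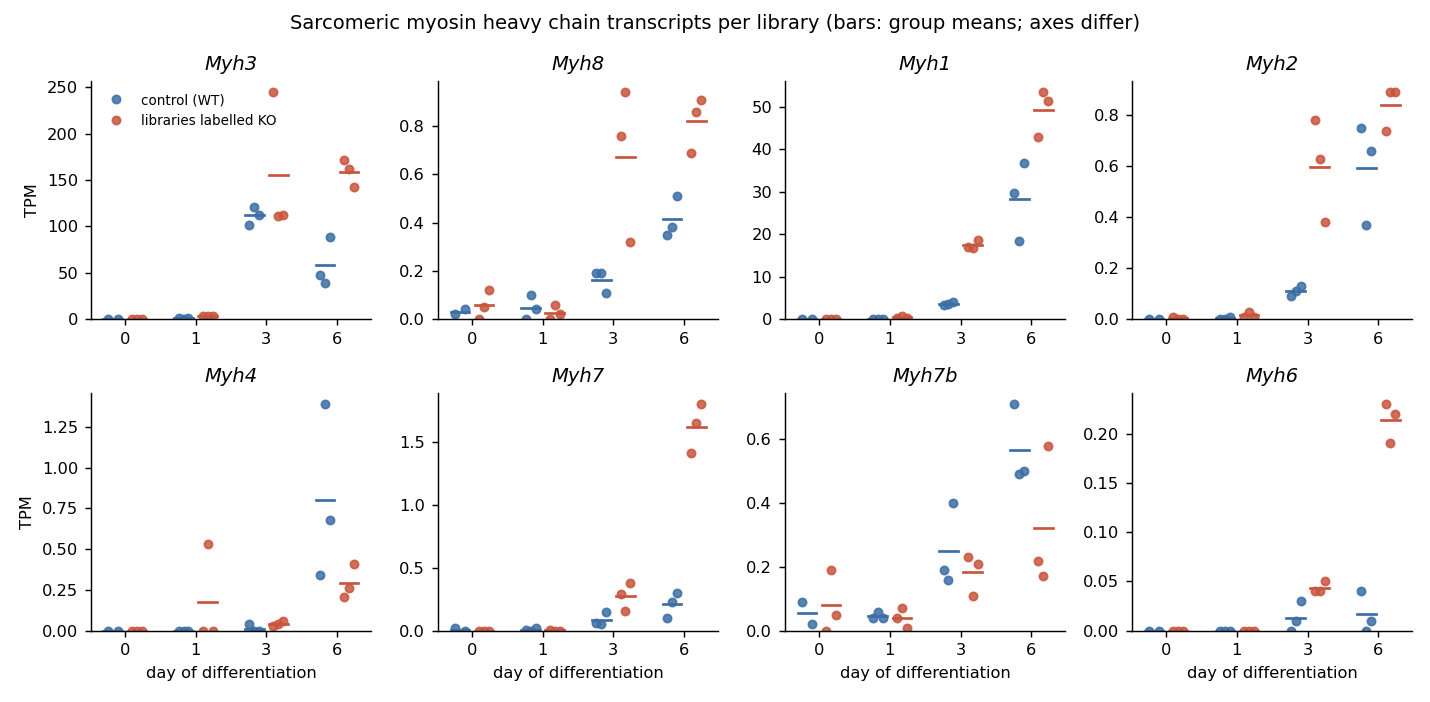
TPM of each member (vertical axes differ between panels) against day of differentiation; each point is a library, WT in blue and KO-labelled libraries in red, and bars are group means. Myh3 reaches more than 100 TPM and Myh1 is next, the other members stay under 2 TPM, and Myh7 and Myh6 stand apart between the genotypes on day 6.

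Myh6, Myh7 and Myh7b each hold a microRNA on the same strand, and these are printed because their hosts moved in opposite directions on day 6. Capitals mark the seed (bases 2 to 8), the part that pairs with target RNAs; the microRNAs of Myh6 and Myh7 share 1 seed and that of Myh7b has another. RefSeq gives the mature sequences as follows.
miR-208a-3p, in Myh6: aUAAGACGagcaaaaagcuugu
miR-208b-3p, in Myh7: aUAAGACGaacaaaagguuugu
miR-499-5p, in Myh7b: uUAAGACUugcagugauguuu
Poly(A) RNA-seq does not measure mature microRNAs: the genes Mir208a, Mir208b and Mir499 were at 0 counts in every library. The hosts of the first 2, Myh6 and Myh7, were higher in KO-labelled libraries on day 6, and the host of the last, Myh7b, was lower.

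The 8 members were then set against all tested genes. On day 0 no member exceeded 9 counts in a library, and Myh4 and Myh6 were at 0 in all of them. The members passed the filter through later days, so the 0 of 8 calls between the genotypes on day 0 (edgeR, adjusted p under 0.05; also 0 at an unadjusted p under 0.05, by DESeq2 and by limma on both TPM scales) carry no information beside the 17.5% of tested genes called. On day 1, 3 of 8 passed (Myh1, Myh3 and Myh4), all higher, against 42.2% of tested genes called and 22.9% called higher; without replicate 2 of the KO-labelled group 2 passed (Myh1 and Myh3). On day 3, 5 of 8 passed (Myh1, Myh2, Myh3, Myh7 and Myh8), all higher, against 43.2% called and 24% called higher; without replicate 1 of the KO-labelled group 4 passed, Myh3 being lost. On day 6, 6 of 8 passed against 42.9%: Myh1, Myh3, Myh6, Myh7 and Myh8 were higher, as were 22% of tested genes, and Myh7b was lower, as were 20.8%. Without Myh6, 5 of 7 passed. The median log2FC of the members was 1.73 on day 3 and 1.18 on day 6 (1.80 and 0.95 without Myh6), beside 0.04 and 0.00 over all tested genes. No median is given for day 0, where counts were near 0, or for day 1, where it turned on the single library with Myh4 counts.

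**Figure D2:**
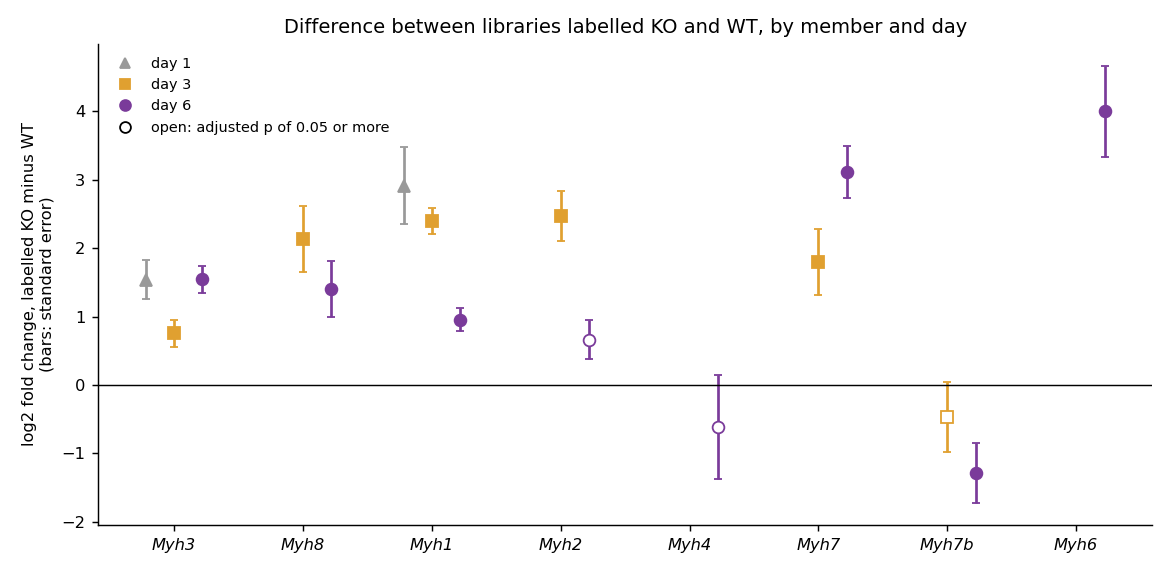
Log2 fold change between KO-labelled libraries and WT for each member on days 1 (triangles), 3 (squares) and 6 (circles), with standard errors; open symbols did not pass an adjusted p of 0.05. Only comparisons with a group mean of at least 10 counts are drawn, and Myh4 on day 1 is left out because a single library held its counts. Myh3, Myh8, Myh1 and Myh7 lie above 0 on each day drawn, and Myh7b lies below 0.

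Differentiation raised the family in both genotypes. In WT, 1 member (Myh3) had risen by day 1, 5 by day 3 (Myh1, Myh2, Myh3, Myh7 and Myh8) and 7 by day 6 (all but Myh6) relative to growth medium, while 27.1%, 29.2% and 32.6% of tested genes rose. In KO-labelled libraries, 3 (Myh1, Myh3 and Myh4), 7 (all but Myh4) and all 8 had risen, while 27.2%, 30.4% and 36.6% of tested genes did. Of these, the day 1 call of Myh4 came from replicate 2 alone (2 members without it), the day 3 call of Myh7b was lost without replicate 1 (adjusted p = 0.0643; 6 members), and the calls of Myh6 on days 3 and 6 passed the filter only through its day 6 counts. Without WT replicate 2 of day 0, 3 in place of 5 WT members passed on day 3. The growth-medium counts are so low that folds against them are wide: the ratio for Myh3 in WT on day 3 was 5867 (95% interval 1624 to 48448), and Myh7 in KO-labelled libraries on day 6 was at least 131-fold above a floor of 3 counts over the group.

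Between days 1 and 3, 5 WT members rose (Myh1, Myh2, Myh3, Myh7 and Myh7b; 11% of tested genes did). In KO-labelled libraries 6 rose (Myh1, Myh2, Myh3, Myh6, Myh7 and Myh8; 15.5% of tested genes did), including Myh6, which went from 0 counts to 3, 3 and 4; without it they were 5 of 7. Myh3 rose by a log2FC of 6.49 in WT (SE 0.27, edgeR adjusted p = 2.64e-14) and by 5.71 in KO-labelled libraries (SE 0.25, adjusted p = 2.16e-14). Myh1 rose by 5.92 and 5.41 (SE 0.39 and 0.25). Of the 5 WT calls, 3 were left without replicate 1 of day 1 or replicate 3 of day 3; Myh7b was lost without either of these or replicate 3 of day 1 (adjusted p = 0.0729, 0.103 and 0.0707).

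Between days 3 and 6 Myh1 rose in both genotypes while Myh3 fell in WT. In WT, Myh1, Myh2, Myh4 and Myh7b rose and Myh3 fell, which makes 5 of 8 against 9.79% of tested genes (4.87% rose and 4.92% fell). Myh3 fell by 0.91 on the log2 scale (SE 0.20, edgeR adjusted p = 0.00374; adjusted p = 0.0543 by limma on log2(TPM + 0.1)) while Myh1 rose by 2.91 (SE 0.19, adjusted p = 1.41e-09). In KO-labelled libraries, 4 of 8 members rose (Myh1, Myh4, Myh6 and Myh7) against 20.2% of tested genes, or 3 of 7 without Myh6. Myh1 rose there by 1.46 (SE 0.17, adjusted p = 3.65e-07), and the change in Myh3 was -0.12 (SE 0.19, adjusted p = 0.666), or 0.28 without replicate 1 of day 3. Myh4 counts rose from 3, 0 and 0 to 27, 41 and 50 in WT, a depth-scaled ratio of 39.0 (95% interval 13.0 to 192). Calls for the scarce members in this step rested on few libraries. That of Myh4 in WT was lost without replicate 2 or 3 of day 3 (adjusted p = 0.0655 and 0.0503) and by DESeq2 (0.0854), and that of Myh7b in WT without replicate 1 or 2 of day 3 or replicate 1 of day 6 (adjusted p = 0.138, 0.127 and 0.138) and by limma on log2(TPM + 0.1) (0.144). Without WT replicate 2 of day 3, 3 WT members passed in place of 5. That of Myh4 in KO-labelled libraries was lost when any 1 replicate of day 3 was left out (adjusted p = 0.104, 0.0948 and 0.0673), or replicate 2 or 3 of day 6 (adjusted p = 0.0599 and 0.110), and by DESeq2 (0.247).

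Tests of whether the genotypes changed by different amounts gave no call for any member when growth medium was the reference (0 of 8 on days 1, 3 and 6, against 3.95%, 10.7% and 13% of tested genes), in which no member exceeded 9 counts in a library. At an unadjusted p under 0.05 edgeR and, at its adjusted threshold, DESeq2 also gave 0 for each of these. Limma on log2(TPM + 1) and log2(TPM + 0.1) called 2 and 2 members on day 3 and 4 and 3 on day 6. With day 1 as the reference for day 3 there were 0 calls by edgeR and DESeq2, against 6.05% of tested genes, and 3 and 1 by limma. Myh3 (-0.79) and Myh8 (2.85) had unadjusted p = 0.0352 and 0.0277, and without replicate 1 of the day 3 KO-labelled group Myh3 passed (-1.18, adjusted p = 0.00772). With day 3 as the reference for day 6, 2 of 8 passed against 12.4% of tested genes, and for both the step in KO-labelled libraries was smaller than that in WT, as the test found for 5.99% of tested genes. The difference was -1.45 for Myh1 (SE 0.25, adjusted p = 0.000555) and -1.81 for Myh2 (SE 0.47, adjusted p = 0.0132), which limma on log2(TPM + 1) did not call (-0.30, adjusted p = 0.121). The KO-labelled step of Myh2 itself did not pass (0.68, SE 0.29, adjusted p = 0.0611). Myh3 differed in the opposite direction, by 0.79 (SE 0.28, adjusted p = 0.0652), and did not pass; without replicate 1 of the day 3 KO-labelled group it was 1.19 (adjusted p = 0.000659), and it also passed without replicate 2 of the day 1 KO-labelled group (0.80, adjusted p = 0.0329) or WT replicate 3 of day 6 (0.97, adjusted p = 0.0272), with no filter on low counts (0.82, adjusted p = 0.00349) and among genes averaging 50 counts or more (0.84, adjusted p = 0.0453). The 2 tests with days 1 and 3 as reference were added after the data had been seen.

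The summed level of the 8 members was 1.26 ± 0.53 TPM (SD, n = 3) in WT on day 1, 116 ± 9.997 on day 3 and 89.2 ± 34.8 on day 6. In KO-labelled libraries it was 3.73 ± 0.69, 175 ± 76.7 and 212 ± 11.002 (SD, n = 3 each). The genotypes did not overlap on any of these days, with ratios of 2.97, 1.51 and 2.37. The day 3 values of KO-labelled libraries were 264, 129 and 132, so that 2 of them lay just above the highest WT library at 125, and the ratio without replicate 1 was 1.13. In bulk RNA, a smaller number of myotubes and less myosin RNA in each of them cannot be told apart.

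The composition of that sum shifted from embryonic to fast isoform. On day 3, Myh3 made up 96.4%, 96.7% and 95.8% of the summed TPM in the WT libraries and 92.7%, 85.6% and 84.9% in those labelled KO. On day 6 its share was 59.6%, 64.8% and 69.2% in WT and 78.6%, 73.8% and 71.8% in KO-labelled libraries. WT therefore had the higher embryonic share on day 3 and the lower one on day 6, without overlap on either day. The Myh1 share ran opposite: 3.13 ± 0.32% in WT and 11.2 ± 4.10% in KO-labelled libraries on day 3 (13.5% without replicate 1), then 32.2 ± 4.63% and 23.3 ± 3.17% on day 6 (SD, n = 3 each). On day 1 Myh3 made up 83.8 ± 11.7% and 82.7 ± 11.3%, and the groups overlapped. The lowest WT share, 71.8%, was that of replicate 2, whose members summed to only 0.78 TPM. Among KO-labelled libraries replicate 2, which alone had Myh4 counts, held 69.7%, and the others held 90.5% and 87.9%.

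The shares of the minor isoforms were small. On day 6 Myh4 held 1.09 ± 1.05% in WT and 0.140 ± 0.058% in KO-labelled libraries (SD, n = 3 each). Myh2 held 0.691 ± 0.226% and 0.398 ± 0.054%. The day 6 shares of these 2 fast isoforms did not overlap between the genotypes. The WT share of Myh4 ran from 0.429% to 2.30%, and its counts did overlap. The perinatal isoform held 0.489 ± 0.122% in WT and 0.389 ± 0.070% in KO-labelled libraries on day 6 (SD, n = 3 each), with overlap. The slow and cardiac genes together (Myh6, Myh7 and Myh7b) held 0.965 ± 0.294% and 1.03 ± 0.244%, also overlapping, although their make-up differed: Myh7 held 0.247 ± 0.128% in WT and 0.769 ± 0.129% in KO-labelled libraries, and Myh7b 0.699 ± 0.270% and 0.157 ± 0.117%, where replicate 3 of the KO-labelled group had 0.291% and the others 0.101% and 0.0777%. Neither gene's day 6 shares overlapped between the genotypes. Shares are ratios within a library and got no test.

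**Figure D3:**
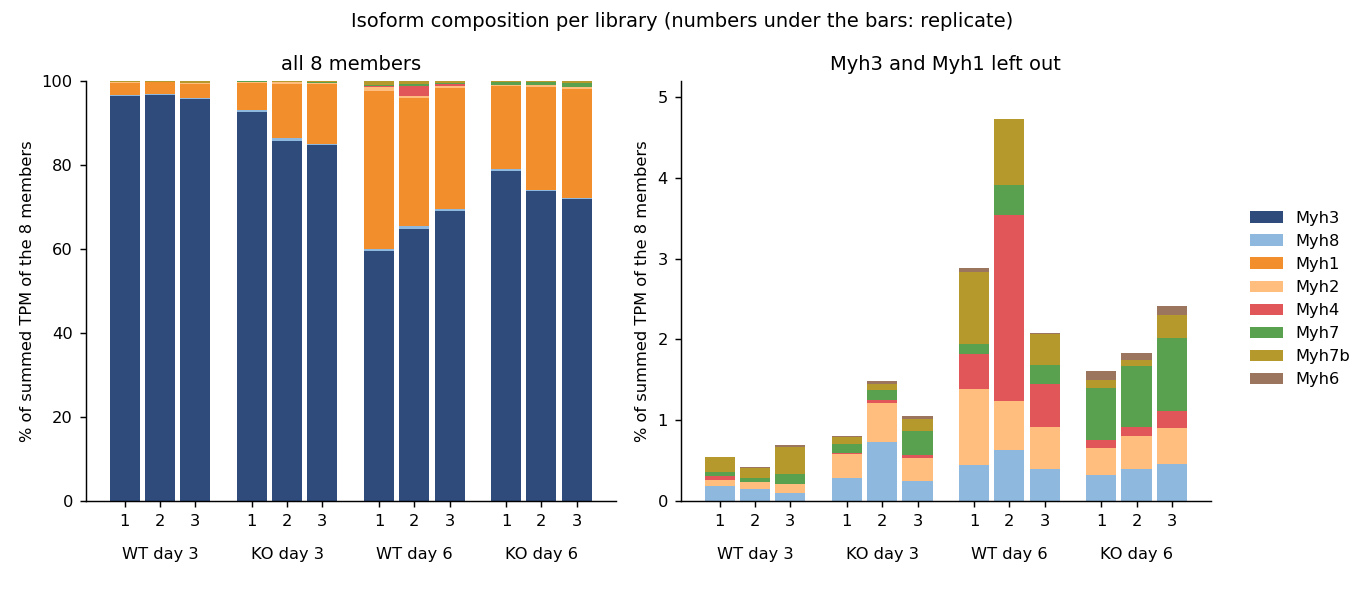
Share of each member in the summed TPM of the 8 members, in percent, for each library of days 3 and 6 (left), and the same bars without Myh3 and Myh1 on a smaller axis (right). The blue Myh3 block is taller in WT on day 3 (95.8% to 96.7%) and shorter in WT on day 6 (59.6% to 69.2%) than in KO-labelled libraries.

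By mean TPM, Myh3 came first and Myh1 next in both genotypes on days 1, 3 and 6, and the libraries of Myh3 lay above those of Myh1 in each group. On day 1 the place of Myh1 was not resolved, since its libraries overlapped those of the next member in both genotypes; on days 3 and 6 they did not. On day 6, Myh4, Myh2 (0.59 TPM), Myh7b (0.57) and Myh8 (0.41) came below them in WT and were not resolved from each other; the Myh4 mean of 0.80 TPM rested on replicate 2 (0.34, 1.39 and 0.68 TPM). In KO-labelled libraries it was Myh7 (1.62 TPM) that came next, above Myh2 (0.84) and Myh8 (0.82), which overlapped each other.

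Genes that act with the myosin heavy chains were examined by list, and each count below stands beside 22% of all tested genes higher and 20.8% lower on day 6. The lists were chosen with earlier results of these data known. Of 20 thick filament partners (myosin light chains, myosin-binding proteins, M-band proteins and titin), 16 were tested and 16 were higher in KO-labelled libraries on day 6, with a median log2FC of 2.45 beside 1.18 for the heavy chains (0.95 without Myh6) and 0.00 for all genes tested. Mybpc1, a myosin-binding protein C, was higher by 3.97 but passed the filter only through KO-labelled libraries, so that it is a description (15 of 15 were higher without it). Among the others was Myl4, the embryonic and atrial light chain, higher by 3.80 (SE 0.14, edgeR adjusted p = 4.80e-16). Their smallest differences were in Mylk2 (0.52) and Myl6b (1.19), a skeletal light chain kinase and a light chain. On day 3, 15 of the 16 were higher (24% of all tested genes were), and on day 1, 11 were higher (22.9%) and 1 lower.

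Among 16 genes of myosin folding, assembly and turnover, 10 were higher and 4 lower on day 6 in KO-labelled libraries (median log2FC 1.11). Unc45b, the muscle chaperone that folds the myosin head, was higher by 3.27 (SE 0.19, edgeR adjusted p = 1.26e-11), and Trim54, a sarcomere-associated ubiquitin ligase, by 2.58 (SE 0.13). Smyd2, a lysine methyltransferase, was at -0.55 (SE 0.085) and Fbxo32, the ubiquitin ligase atrogin-1, at -0.49 (SE 0.11), both passing.

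The fibre type lists moved in the same direction as each other. Of 11 tested slow-fibre genes 9 were higher and 1 lower on day 6 (median 2.02), and of 14 tested fast-fibre genes 10 were higher and 1 lower (median 1.92). Without Pvalb, which passed the filter only through KO-labelled libraries, 10 of 13 fast-fibre genes were higher and 1 lower (median 2.44). The extremes on the slow list were myoglobin (Mb, 4.41, SE 0.20) and Csrp3, a muscle LIM protein (3.43, SE 0.24), against carbonic anhydrase 3 (Car3, -2.16, SE 0.24). On the fast list they were the fast myosin-binding protein Mybpc2 (3.51, SE 0.30) and the light chain Myl1 (2.72, SE 0.16), against Actn3, the fast-fibre alpha-actinin (-0.68, SE 0.091). Of 33 tested regulators of fibre type or developmental isoforms, 17 were higher and 5 lower (median 0.29, beside 0.00 over all tested genes), so 22 of 33 were called where 42.9% of all tested genes were. Without Esrrb and Esrrg, which passed the filter through 1 genotype only, 16 of 31 were higher and 5 lower. Mef2c (3.81, SE 0.38), the orphan nuclear receptor Esrrg (3.12, given as a description) and myogenin (Myog, 2.61, SE 0.26) were higher, and the calcineurin-responsive factor Nfatc4 (-3.46, SE 0.13) and the histone deacetylase Hdac9 (-1.25, SE 0.21) were lower.

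**Figure D4:**
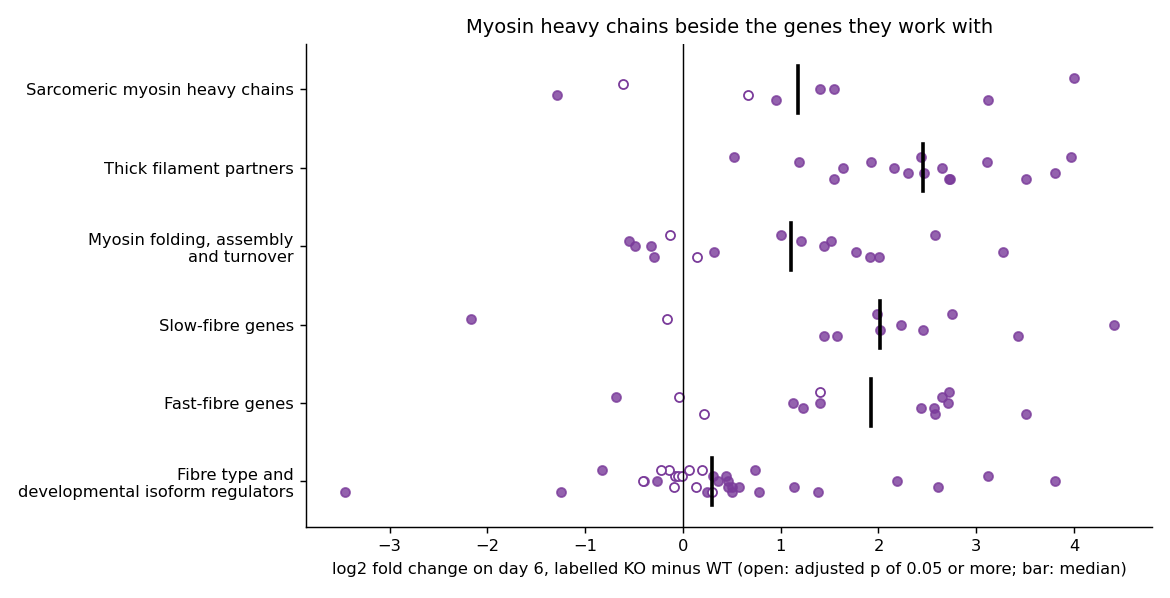
Log2 fold change between KO-labelled libraries and WT on day 6 (horizontal axis) for the 8 members and for the tested genes of 5 lists; each point is a gene, filled where it passed an adjusted p of 0.05, and black bars are medians. The thick filament partners all lie above 0 with a median of 2.45, while the heavy chains spread from -1.28 for Myh7b to 3.998 for Myh6.

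Markers of several cell types also differed on day 6, to be read beside the same 22% and 20.8%. All 7 myotube markers in the table (8 listed) were higher in KO-labelled libraries on day 6, with a summed level of 12932 to 15285 TPM against 2249 to 2728 in WT. None of the 7 was at 0 in either group. On day 3, when 24% of all tested genes were higher, 6 of the 7 markers were, at 4345 to 7461 against 2637 to 2862 TPM. Of 6 myoblast markers 2 were higher and 2 lower on day 6 (1884 to 2009 TPM against 1203 to 1439). Of 6 tested smooth muscle markers, 1 was higher and 4 were lower, summed over 7 listed genes to 1481 to 1534 against 2124 to 2345 TPM. Without Myocd, which passed the filter only through KO-labelled libraries, 1 of 5 smooth muscle markers was higher and 4 were lower. Of 4 tested fibroblast markers Ly6a was higher and 2 were lower, 1 of these being Scara5, which passed the filter only through WT. Their summed level of 1000.2 to 1135 against 195 to 224 TPM over 5 genes was nearly all Ly6a (means of 1082 and 200.1 TPM). Both tested adipocyte markers were lower, and Adipoq and Lep were at 0 in both groups; neither of the 2 tested bone and cartilage markers passed. The part of these shifts in the myosin differences was not tested.

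The genes closest in pattern to each member that reached 5 CPM in a group (Myh3, Myh1 and Myh7) were found by the root-mean-square difference in centred log2 CPM over the 8 group means, among 10664 candidates with at least 5 CPM in a group. For Myh3 these were Acta1, skeletal alpha-actin (0.80), Mybph (0.84), Myog (0.88), Actc1 (0.90) and Ckm (0.94). For Myh1 they were the M-band gene Myom3 (0.69), Myoz2 (0.69), Trim72 (0.73), the calcium channel gene Cacna1s (0.77) and Casq2 (0.79). For Myh7 they were Tmem184a (0.30), Ankrd23 (0.32), Asb16 (0.33), Chil1 (0.37) and Rab44 (0.39). Outside the day 6 KO-labelled group Myh7 had at most 32 counts in a library, and the prior count of 2 compresses differences at such levels, so its neighbours are less certain than those of Myh3 and Myh1. The other 5 members did not reach 5 CPM in any group.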

How the data were processed

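The deposited tables cover 23 libraries by gene symbol. The submitters' processing notes name Bowtie2, RSEM and mm10; their versions, the annotation and the use of strand are not given in the sources used here. The first table holds expected counts estimated by the authors, deposited as whole numbers (rounding changed 0 values); the second holds the authors' TPM values. Counts were tested with edgeR 4.0.16 in R 4.3.3 (quasi-likelihood F-test, TMM scaling, filterByExpr with minimum count 10 and total 15, 14187 genes) in 1 model of group means over all libraries, with Benjamini-Hochberg adjustment per comparison and a threshold of 0.05. Standard errors derive from the F statistic. Shares and sums were computed from TPM. Floors and intervals cover counting error only. RefSeq promoter windows and microRNAs and GENCODE transcripts are of the GRCm38 assembly. The rule for named genes took all 8 members, and from each list the 2 most positive and 2 most negative passing genes on day 6; Myog was added after its values were seen. The members and lists were chosen with earlier results of these data known. Alternatives were other scalings, filters and thresholds, DESeq2 1.42.0, limma 3.58.1 on TPM in log2 with a pseudocount of 1 or 0.1, a replicate block, omission of each library and models limited to the groups compared. The fit was tested on simulated data.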

Additional observations from a re-analysis of the deposited data

Results flagged for a closer look

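The genotypes differed in the change of Myh1 and Myh2 between days 3 and 6, by a test chosen after the data had been seen. The third adult fast isoform, Myh4, did not pass (-2.28, SE 1.93, adjusted p = 0.505). For Myh1 the step in KO-labelled libraries was smaller than the step in WT by 1.45 on the log2 scale (edgeR interaction -1.45, SE 0.25, adjusted p = 0.000555). On day 3 the KO-labelled libraries held 1374, 1392 and 1590 counts and WT 253, 276 and 323; on day 6 they held 3325, 4624 and 4447 and WT 2337, 1491 and 2674. For Myh2 the interaction was -1.81 (SE 0.47, adjusted p = 0.0132), with WT counts going from 6, 8 and 10 to 60, 30 and 48 and those labelled KO from 49, 49 and 32 to 59, 78 and 79. Both differences stayed past the threshold without replicate 1 of the day 3 KO-labelled group (-1.48 and -1.70, adjusted p = 0.000699 and 0.0262). The Myh2 difference was not called by limma on log2(TPM + 1) (-0.30, adjusted p = 0.121), and its KO-labelled step did not itself pass (0.68, adjusted p = 0.0611). Reads of Myh1 and Myh2 may be split between them, so their values are not independent.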

How the results depend on the processing

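Depth limits Myh2, Myh4, Myh6, Myh7, Myh7b and Myh8, which the filter on mean count below removes. A mean count of at least 50 kept only Myh1 and Myh3, so that 2 members passed in KO against WT on days 3 and 6, in WT day 3 and day 6 against day 0, day 3 against day 1 and day 6 against day 3, and in KO day 3 and day 6 against day 0 and day 3 against day 1, and 1 in KO day 6 against day 3. An adjusted p under 0.01 left 3 in WT day 3 against day 0 and day 1 and day 6 against day 3, and 1 in the interaction of day 6 with day 3. Fits on the compared groups gave 3 in WT day 3 against day 0 and day 1. Limma on log2(TPM + 1) gave 2 in those comparisons, and in the interactions 2 (day 3 with day 0), 4 (day 6 with day 0) and 3 (day 3 with day 1). Limma on log2(TPM + 0.1) gave 3 in WT day 6 against day 3, and 2, 3, 1 and 4 in the interactions of day 3 and day 6 with day 0, day 3 with day 1 and day 6 with day 3. The causes were not tested.

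Omitting 1 library at a time gave 3 to 6 members for WT day 3 against day 0, 3 to 6 against day 1, 3 to 5 for WT day 6 against day 3, and 0 to 1 for the interaction of day 3 with day 1. The day 1 value of Myh4 against WT and against KO day 0 ranged from 0 to 7.42, and its KO step from day 1 to day 3 from -2.60 to 4.79 (-2.03 with all libraries); the lowest value of the first and the reversal of the second came without replicate 2 of KO day 1, the only library of that group with Myh4 counts. The KO step of Myh3 from day 3 to day 6 ranged from -0.29 to 0.28, the reversal coming without replicate 1 of day 3, and turned to 0.12 and 0.13 by limma on log2(TPM + 1) and log2(TPM + 0.1).

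With estimated counts in place of TPM, the Myh3 share was 94.9% in WT on day 3, 58.6% in WT on day 6 and 68.0% in KO on day 6, and the Myh1 share 4.42%, 38.3% and 29.6%.

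Same-numbered libraries did not deviate together (mean correlation -0.094 to 0.049). With the replicate number as a block, 0, 3, 5 and 6 members passed between KO and WT on days 0, 1, 3 and 6, as without it.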

Other observations

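Myh13, an extraocular myosin heavy chain gene at the end of the chromosome 11 cluster (chr11:67327103-67371587) and not among the 8 members, passed the filter on low counts only through WT, the group in which it was high, so its values are given with no test. Its counts in WT were 4, 4 and 8 on day 1, 18, 18 and 13 on day 3 and 40, 33 and 36 on day 6. In KO-labelled libraries they were 2, 0 and 0, then 0, 0 and 1, then 0, 0 and 0. The day 6 WT counts of Myh13 were given 1.98, 1.29 and 1.5 TPM. In the same libraries 60, 30 and 48 counts of Myh2 were given 0.75, 0.37 and 0.66 TPM. Since TPM is per length, the counting gave the Myh13 reads a shorter length, and full-length Myh13 mRNA was not shown. On day 6 Myh13 was at least 35.9-fold lower in KO-labelled libraries (against a floor of 3 counts over the group). On day 3 the depth-scaled ratio of WT to KO-labelled libraries was 47.3 (95% interval 8.11 to 1908, counting error only), given as a description. With Myh13 and Myh15 added to the sum, the shares of Myh3 and Myh1 on days 3 and 6 moved by less than their SD in both genotypes. Myh15 was at 0 counts in every library.

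Of the non-muscle myosin heavy chains, Myh9 and Myh10 were present in every library, at 171 to 481 and 28.5 to 72.2 TPM over the libraries. Myh14 was scarce and reached 10 counts in 1 WT library and in several KO-labelled ones; it is given with no test, with 8, 14 and 5 counts in WT on day 6 and 44, 40 and 59 in KO-labelled libraries.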
